A study of Mus musculus with 3 samples.

Results

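C-type lectin receptor genes of myeloid cells were followed in multipotent progenitors of mice labelled deficient in the transcription factor Mef2c and of control mice. The 10 genes were Clec4a1, Clec4a2, Clec4a3, Clec4d, Clec4e, Clec4n, Clec5a, Clec7a, Clec9a and Clec12a. They were picked by the gene name printed beside each non-control probe, which gave 14 of 41174 probes and 10 genes. The choice was made with results of the same mutant and control contrast known, so the values of these 10 genes are a description and no test is drawn from them. Of the 10 genes, 8 had a probe that passed the filter on dim signals, and they are 8 of the 22222 genes tested.

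The study compared progenitors of Mef2c-deficient mice, which carried Mx1-Cre and floxed Mef2c alleles (Mx1-Cre Mef2c fl/fl), with those of control mice, which carried the floxed alleles without Cre (Mef2c fl/fl). It asked how Mef2c bears on the choice between lymphoid and myeloid fates. Mice of both groups received 4 daily injections of poly(I:C), at a dose of 250 whose unit is garbled in the labels and read here as µg. Poly(I:C) is a double-stranded RNA analog that turns on the Mx1 promoter and so the Cre recombinase, and marrow was taken 2 days after the last injection. Per sample 15000 cells were sorted that carried c-Kit and Sca-1 and lacked CD3, Mac-1, Gr-1, Ter119 and B220, a gate that names no marker setting stem cells apart. After SuperAmp amplification, a PCR of all cDNA made from the mRNA, 250 ng was labelled per channel, and on each of 3 arrays Mef2c-deficient cDNA carried Cy3 and control cDNA carried Cy5. The labels give no age and do not say whether replicates came from separate mice, so the spread given here is that between these samples and may be technical. The controls lacked Cre, so an effect of Cre cannot be told apart from one of Mef2c loss. Because dyes were not swapped as labelled, dye and genotype cannot be told apart either.

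C-type lectin receptors are cell-surface proteins whose lectin-like fold binds sugars, lipids or proteins of microbes and of damaged cells. Some, such as the products of Clec4a2 and Clec12a, hold an inhibitory motif (ITIM) in their cytoplasmic tail that recruits phosphatases. Others signal through the kinase Syk, either with an activating motif of their own (Clec7a and Clec9a) or through the adaptors Fcer1g (Clec4d, Clec4e and Clec4n) and Tyrobp (Clec5a). They are best known on monocytes, macrophages, neutrophils and dendritic cells, and their genes lie in groups on chromosome 6 of the mouse.

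The sequences around the starts of Clec4a2, Clec5a and Clec12a are shown because Clec4a2 and Clec5a had the highest ratios among members measured in both groups, and Clec12a was well above background in Mef2c-deficient libraries but in no control. Each runs from 250 bases before to 50 bases after the gene start in the RefSeq table for GRCm38.p6. Clec4a2 lies on the plus strand at chr6:123122440-123122739, Clec5a on the minus strand at chr6:40585756-40586055 and Clec12a on the plus strand at chr6:129349994-129350293. Capitals mark the letters GAGGAA, a core that the myeloid factor PU.1 is known to bind, read on either strand.
Clec4a2: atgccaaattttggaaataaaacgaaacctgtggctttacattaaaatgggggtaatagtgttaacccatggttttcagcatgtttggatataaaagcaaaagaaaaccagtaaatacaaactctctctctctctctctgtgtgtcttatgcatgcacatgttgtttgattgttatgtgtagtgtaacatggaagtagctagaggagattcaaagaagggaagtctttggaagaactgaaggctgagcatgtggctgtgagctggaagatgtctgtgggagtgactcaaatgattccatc
Clec5a: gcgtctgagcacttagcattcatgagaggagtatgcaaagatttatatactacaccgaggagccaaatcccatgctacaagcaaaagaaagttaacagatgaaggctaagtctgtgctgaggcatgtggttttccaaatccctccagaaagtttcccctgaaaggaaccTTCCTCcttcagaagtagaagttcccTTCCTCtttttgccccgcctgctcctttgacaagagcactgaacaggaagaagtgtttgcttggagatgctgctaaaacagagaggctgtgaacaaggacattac
Clec12a: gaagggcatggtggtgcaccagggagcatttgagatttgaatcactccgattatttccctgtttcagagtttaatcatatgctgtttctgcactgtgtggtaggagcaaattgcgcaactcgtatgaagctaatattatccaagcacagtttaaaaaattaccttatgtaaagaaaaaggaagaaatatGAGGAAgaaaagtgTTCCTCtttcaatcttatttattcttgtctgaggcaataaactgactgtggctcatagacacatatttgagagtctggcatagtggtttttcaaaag
The Clec4a2 window held no GAGGAA, and the windows of Clec5a and Clec12a held 2 each. In Clec5a the matches began at -81 and -55 from the gene start, and in Clec12a at -61 and -47. Of the 9 members with a promoter in the table, 7 held GAGGAA on either strand, against 28.3% of all 32851 promoters of the same length. Those without it were Clec4a2 and Clec9a. The letters TTNCNNAA, an outline of a C/EBP site, lay in 5 of 9 members and in 40.7% of all promoters. TGTGGT, the core of RUNX sites, lay in 5 of 9 members and in 16.8% of all promoters. The letters CTA and TAG with 4 free bases between them, an outline of a site for MEF2 proteins, lay in 0 of 9 members and in 3.69% of all promoters. A member was counted if any of its promoters matched, and Clec4a3 and Clec7a had 2 promoters each. The percentages are of single promoters, so the units differ. These 4 patterns were kept from a larger number tried, may overlap one another, and are matches of letters, not sites shown to be bound.

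Levels are given as the log2 of the normalized signal of each library, and ratios as log2 of Mef2c-deficient over control on the same array. A probe is called well above background where the scanner software set that flag. That flag was set for 73.4% to 78.6% of probes in the Mef2c-deficient libraries and for 76.3% to 80.4% in the controls, and 0 spots were saturated. Precision is limited by the number of arrays, which is 3. The log2 ratios of all 22222 genes correlated at 0.306 between arrays 1 and 2, at 0.128 between arrays 1 and 3 and at 0.0389 between arrays 2 and 3. In the authors' deposited table of log2 ratios, the column of array 2 ran opposite to the scanner's Cy3 over Cy5 direction that the other 2 columns followed (correlation with the scanner's Cy5 over Cy3 of -0.947, 0.935 and -0.939 on arrays 1, 2 and 3). The direction of array 2 is therefore unsettled, and member ratios are given below both as labelled and with array 2 turned. The Mef2c probe for its RefSeq transcript read 0.08, 0.10 and -0.96 on the 3 arrays, a mean of -0.26 ± 0.61 (SD, n = 3). Another Mef2c probe, A_52_P282110, read 1.07, 0.22 and 0.28, which averaged 0.52 ± 0.48. It passed the background flag in 2 Mef2c-deficient libraries and 1 control. The labels do not say whether either probe lies in the floxed exon, so they do not check the labels.

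Among the members, the inhibitory receptor gene Clec4a2 and the Tyrobp-coupled receptor gene Clec5a were highest in Mef2c-deficient progenitors relative to control, by 3.23-fold and 3.06-fold as labelled, and with array 2 turned their log2 ratios were 0.30 and -0.28. Clec4d was also above control on all 3 arrays as labelled, and Clec4e was below control on all 3. Clec12a was well above background in 2 of 3 Mef2c-deficient libraries and 0 of 3 controls. Clec7a, Clec4n and Clec9a had ratios of both signs. The median log2 ratio of the 8 members was 0.48, with 5 above 0 and 3 below, beside a median of -0.04 over all genes tested. The 8 include Clec12a (above 0) and Clec9a (below 0), which no array had well above background in both channels. Over the 6 members well above background in both channels on all arrays the median was also 0.48. On arrays 1, 2 and 3 the members' medians were 0.02, 0.39 and 0.78, beside -0.07, -0.05 and 0.00 over all genes, and without replicate 3 the members' median was 0.17.

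With limma and Benjamini-Hochberg adjustment, 0 of 22222 genes passed an adjusted p of 0.05 (0% of those tested), and the lowest adjusted p of any member was 0.461. At an unadjusted p under 0.05, 4 of 8 members were higher in Mef2c-deficient libraries, where 1069 of all genes were (4.81%). At the same threshold 0 members were lower, where 1182 of all genes were (5.32%), and in either direction 4 members stood beside 2251 of all genes (10.1%). A ratio above 0 on all 3 arrays was found for 4 members and for 15.2% of genes with 3 ratios. A ratio below 0 on all 3 was found for 1 member and for 20.3% of such genes. Every Mef2c-deficient library lay above every control library for 2 members and for 7.22% of genes, and every one lay below for 0 members and 11.7% of genes. Nothing is read from these counts, since the members were chosen on this contrast and since they include Clec12a, whose control signal was not well above background. With array 2 turned, the members' median was -0.05.

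**Figure D1:**
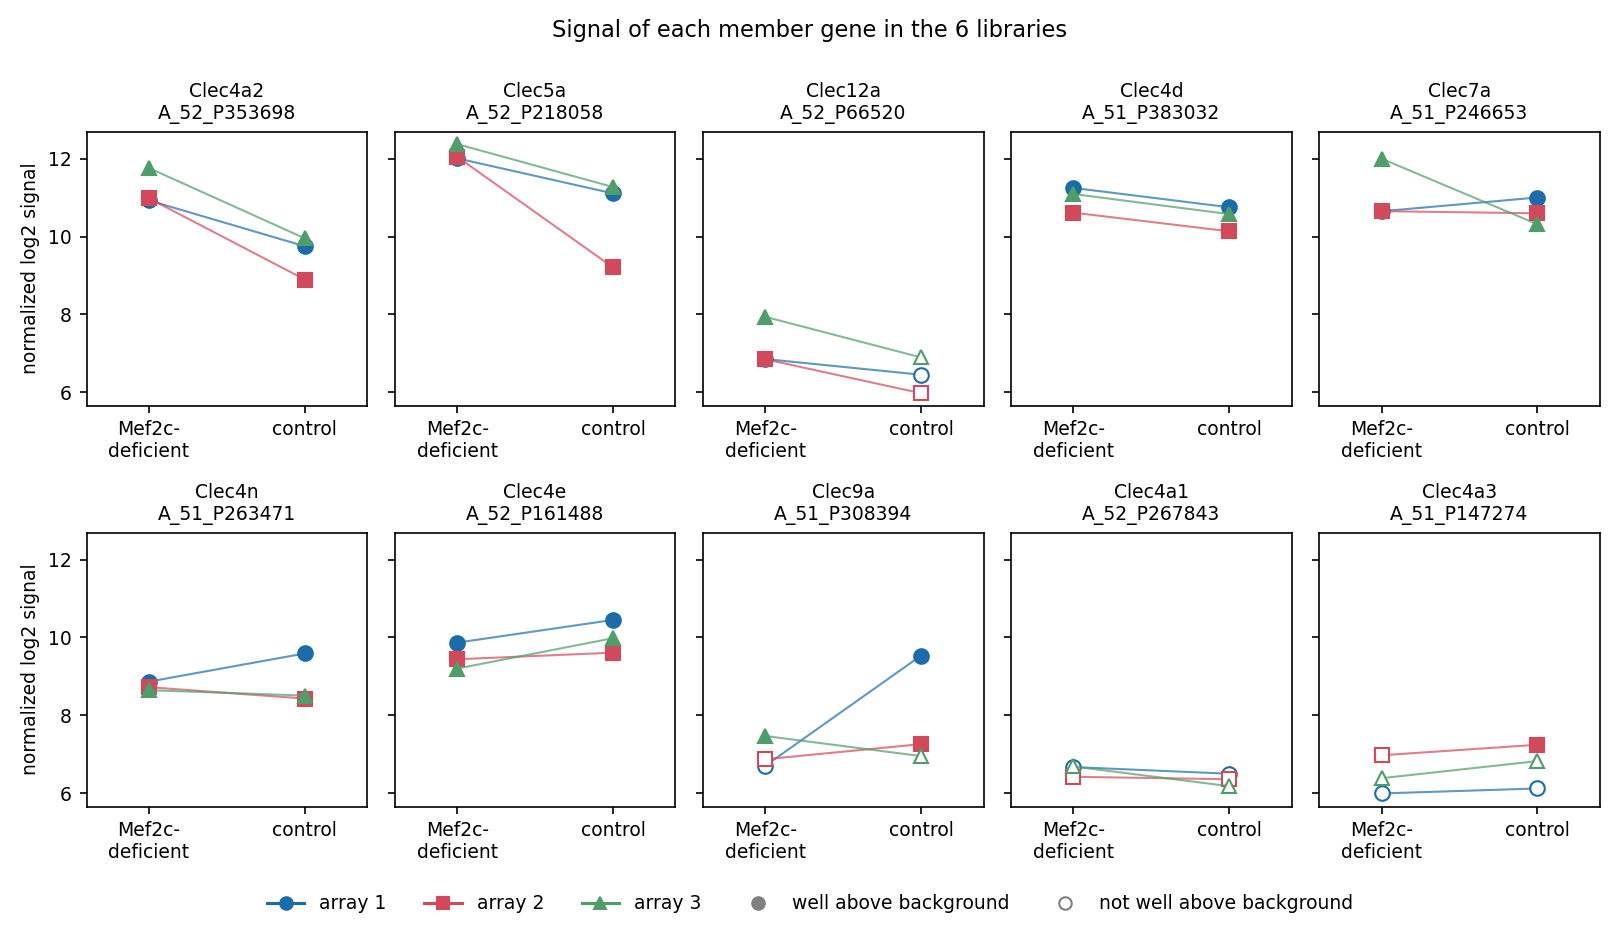
Normalized log2 signal (vertical axis) of the probe that represents each of the 10 members in the 3 Mef2c-deficient libraries (left) and 3 control libraries (right), with a line joining the samples of 1 array; open markers were not well above background. Clec4a2 and Clec5a have every Mef2c-deficient library above every control library as labelled, which with array 2 turned is no longer so, and Clec4a1 has open markers in all 6 libraries.

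Among the receptors with an inhibitory motif, Clec4a2 encodes DCIR, a receptor of dendritic cells, macrophages and other myeloid cells. Its brightest probe, A_52_P353698, had levels of 10.93, 10.98 and 11.76 in Mef2c-deficient libraries 1, 2 and 3, against 9.75, 8.90 and 9.95 in the control libraries. The groups did not overlap, with the lowest value in control 2 and the highest in Mef2c-deficient library 3. The ratios on arrays 1, 2 and 3 were 1.18, 2.09 and 1.81, with a mean of 1.69 ± 0.47 (SD, n = 3). This mean stood at the 99.9 percentile of all genes tested, a rank that is no test since the members were chosen on this contrast. With array 2 turned the mean was 0.30 ± 2.09. The probe also lists an accession of the neighbouring gene Clec4b1, so its signal could hold RNA of both genes.

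A second Clec4a2 probe, A_51_P444092, lists accessions of Clec4a2 alone. Its levels were 10.07, 9.91 and 9.43 in Mef2c-deficient libraries, against 8.38, 8.23 and 8.45 in controls, and again the groups did not overlap. Its ratios were 1.69, 1.69 and 0.98, with a mean of 1.45 ± 0.41 or 2.74-fold (0.33 with array 2 turned). The 2 probes gave different orders of the arrays, the first being lowest on array 1 and the second on array 3. The probe for Clec4b1 itself gave -0.15, 0.16 and 0.70, a mean of 0.24 ± 0.43. The remaining Clec4a2 probe, A_52_P356106, was not well above background in any library and is not used.

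Clec12a encodes MICL, an inhibitory receptor that is known to sense uric acid crystals and dead cells. Its probe A_52_P66520 read 6.85, 6.85 and 7.94 in Mef2c-deficient libraries, against 6.45, 5.97 and 6.89 in controls. It was well above background in Mef2c-deficient libraries 2 and 3 and not well above background in any control. The groups overlapped in signal, since Mef2c-deficient library 2 lay below control 3. No fold or bound is given for Clec12a, because Mef2c-deficient library 1 was not well above background either. Array 1 measured it in neither channel. The probe's signals gave a mean log2 ratio of 0.77 with background-corrected intensities and 2.16 with the scanner's processed signals, neither of which is a measured difference. With array 2 turned it was well above background in 1 library of each group.

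Clec4a1 and Clec4a3 belong to the same DCIR subfamily as Clec4a2. Clec4a1 was not well above background in any of the 6 libraries. Clec4a3 was well above background in 0 of 3 Mef2c-deficient libraries and 1 of 3 controls, control 2. Neither passed the filter, and no fold is given for them.

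Clec5a encodes MDL-1, a receptor of monocytes, macrophages and neutrophils that signals through Tyrobp and Hcst. Its brightest probe, A_52_P218058, had levels of 12.01, 12.05 and 12.37 in Mef2c-deficient libraries, against 11.11, 9.21 and 11.27 in controls. The Mef2c-deficient libraries lay within a narrow band above all controls, and control 2 lay well below the other controls. The ratios were 0.90, 2.84 and 1.104, with a mean of 1.62 ± 1.07. Without replicate 2 the mean was 1.002, and with array 2 turned it was -0.28.

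The other Clec5a probes differed in size and in pattern. Probe A_51_P398376 had levels of 10.94, 11.13 and 9.51 in Mef2c-deficient libraries, against 7.31, 6.42 and 9.44 in controls, and it was not well above background in control 2. Its ratios were 3.63, 4.72 and 0.07, a mean of 2.81 ± 2.43, so that Mef2c-deficient library 3 and control 3 were nearly alike where the other pairs were far apart (-0.34 with array 2 turned). This probe lists a different Clec5a transcript accession from the brightest probe. Probe A_52_P142888 was well above background in 1 of 3 Mef2c-deficient libraries and 0 of 3 controls, and no fold is given for it.

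Among the receptors that pair with Fcer1g, Clec4d encodes MCL, also called Dectin-3, which forms complexes with the products of Clec4e and Clec4n. Its probe A_51_P383032 read 11.25, 10.61 and 11.09 in Mef2c-deficient libraries, against 10.75, 10.13 and 10.57 in controls. The groups overlapped in level, since library 2 was lowest in both, yet the ratio was nearly the same on each array, at 0.50, 0.48 and 0.52. Its mean was 0.50 ± 0.02, and 0.14% of all genes tested had as small an SD. The mean was 0.34 with median centring in place of loess and 0.18 with array 2 turned.

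Clec4e encodes Mincle, a receptor for mycobacterial glycolipids that is known to be induced in activated macrophages and neutrophils. Its probe A_52_P161488 had levels of 9.87, 9.44 and 9.20 in Mef2c-deficient libraries, against 10.45, 9.61 and 9.98 in controls. Within each array the Mef2c-deficient library was the lower, and control 1 was the highest of all 6. The ratios were -0.58, -0.17 and -0.78, with a mean of -0.51 ± 0.31, and -0.40 with array 2 turned. Clec4e and Clec4d lie next to each other on chromosome 6, and their mean ratios had opposite signs.

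Clec4n encodes Dectin-2, a receptor for fungal mannans. Its probe A_51_P263471 read 8.87, 8.72 and 8.65 in Mef2c-deficient libraries, against 9.59, 8.43 and 8.51 in controls. The Mef2c-deficient libraries lay between control 1 and the other controls. The ratios were -0.72, 0.29 and 0.14, with a mean of -0.10 ± 0.55, which was 0.22 without replicate 1 and -0.29 with array 2 turned.

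Of the receptors that carry their own activating motif, Clec7a encodes Dectin-1, the receptor for fungal beta-glucans. Its probe A_51_P246653 had levels of 10.65, 10.65 and 12.00 in Mef2c-deficient libraries, against 11.00, 10.60 and 10.32 in controls. Mef2c-deficient library 3 stood apart from the other 5 libraries, which overlapped. The ratios were -0.35, 0.05 and 1.68, with a mean of 0.46 ± 1.08, which was -0.15 without replicate 3 and 0.43 with array 2 turned.

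Clec9a encodes DNGR-1, which binds actin filaments of dead cells and marks cross-presenting dendritic cells and their precursors. Its probe A_51_P308394 read 6.70, 6.87 and 7.47 in Mef2c-deficient libraries, against 9.54, 7.26 and 6.95 in controls. It was well above background in Mef2c-deficient library 3 and in controls 1 and 2. No array had it well above background in both channels, so none of its ratios is a measured difference. Control 1 alone was far above the rest, and the ratios were -2.83, -0.39 and 0.52, with a mean of -0.90 ± 1.73. Without replicate 1 the mean was 0.06, and with array 2 turned it was -0.64.

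Across the 6 libraries the levels of some members ran together, which is given as a description over 6 points that share arrays and groups. The brightest Clec5a probe correlated with the brightest Clec4a2 probe at 0.934, and Clec4d correlated with them at 0.836 and 0.802. The 2 Clec4a2 probes correlated at 0.82. Clec4e ran with Clec4n at 0.706 and against the brightest Clec4a2 probe at -0.531. That Clec4a2 probe also lists Clec4b1. The probe of Clec4a2 alone, A_51_P444092, gave weaker values, at 0.765 with Clec5a, 0.689 with Clec4d and -0.468 with Clec4e. The 5 genes whose levels followed the brightest Clec4a2 probe most closely, of 19499 genes well above background in every library, were Tmem273 at 0.999, the replication clamp loader gene Chtf18 at 0.997, the glutathione transferase genes Gstm1 at 0.996 and Mgst1 at 0.991, and the mitotic activator gene Cdc20 at 0.987.

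The adaptors and kinases through which these receptors signal were measured in both groups, with 19 of 20 genes tested. Their median log2 ratio was -0.08, with 8 above 0 and 11 below, and 0 passed the adjusted test. At an unadjusted p under 0.05, 1 was higher and 0 were lower. The kinase gene Lyn averaged 0.49 ± 0.31 and was above 0 on all 3 arrays as labelled, and with array 2 turned it was at -0.07. Src averaged -0.61 ± 0.71 and Malt1, which acts below Card9 towards NF-κB, -0.50 ± 0.55, both below 0 on all 3. Fcer1g, the adaptor of Clec4d, Clec4e and Clec4n, gave -0.04, 0.53 and 0.67 on the 3 arrays. Tyrobp, the adaptor of Clec5a, gave 0.19, 0.80 and 0.21, and its mean of 0.40 became -0.13 with array 2 turned. Syk averaged -0.31 ± 0.08 and was below 0 on each array as labelled. With array 2 turned, Syk was at -0.08, Fcer1g at 0.03, Src at -0.34 and Malt1 at -0.23.

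Of 37 other genes of the C-type lectin family or name, 35 were on the array, 9 were not well above background in any library and 24 were tested. Their median was -0.06, with 10 above 0 and 14 below, and 0 passed the adjusted test. At an unadjusted p under 0.05, 3 were higher and 1 was lower. The largest same-sign ratios were those of Clec10a, a macrophage lectin for galactose-type sugars, at 0.97 ± 0.56, and of Cd302 at 0.88 ± 0.63. On the low side were Clec2d, whose product is a ligand of an NK cell receptor, at -0.79 ± 0.58, and Clec3b, a secreted plasminogen-binding protein, at -0.60 ± 0.60. Each of these 4 genes kept its sign with array 2 turned.

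Genes that these receptors are known to induce, such as cytokines, chemokines and NF-κB subunits, had a median of -0.65 over 18 of 21 genes tested, with 1 above 0 and 17 below. At an unadjusted p under 0.05, 0 were higher and 5 were lower, and 0 passed the adjusted test. Csf2 was the gene above 0, at 0.23 ± 0.13. Egr3 averaged -2.35 ± 2.15 and the chemokine gene Ccl3 -2.09 ± 2.11. The list's medians were -1.89, -0.31 and -0.07 on arrays 1, 2 and 3. Its summed linear signal was 20200, 20350 and 22980 in Mef2c-deficient libraries, against 88310, 29790 and 22390 in controls, so that control 1 stood apart. Control 1 was also the highest of the 6 libraries for Clec4e, Clec4n and Clec9a, and the part of such genes in those members' values was not tested.

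**Figure D2:**
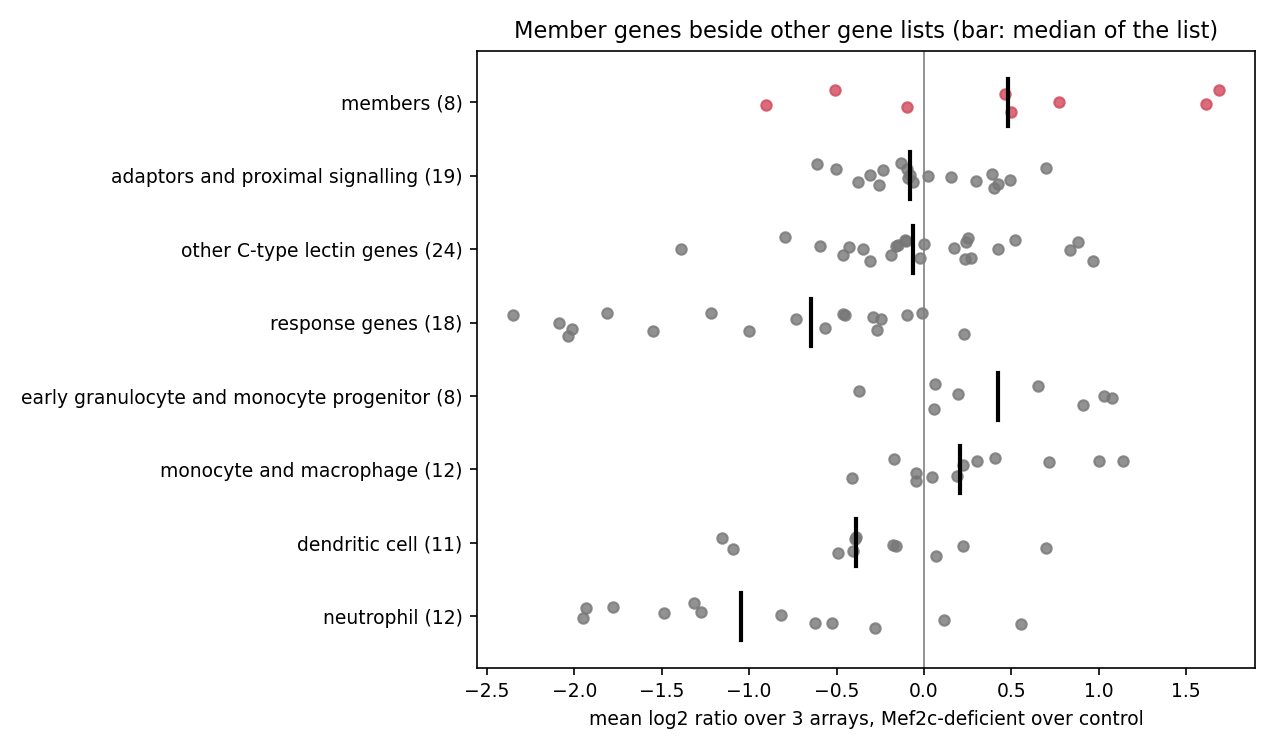
Mean log2 ratio of Mef2c-deficient over control on 3 arrays (horizontal axis) for each tested gene of the members, of the pathway lists and of markers of myeloid cell types, with a bar at the median of each list. The members' median is 0.48, the early granulocyte and monocyte progenitor list's is 0.42 and the response genes' is -0.65.

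The sorted cells were bulk samples, in which fewer cells of a type and less RNA per cell cannot be told apart, so markers of the cell types that carry these receptors are set beside them. Of 14 monocyte and macrophage markers 12 were tested, with a median of 0.21, 8 above 0 and 4 below. Their summed signal was 51710, 59140 and 81680 in Mef2c-deficient libraries, against 55130, 44610 and 55050 in controls. The library with the highest sum was also highest for Clec7a, for Clec12a and for the brightest probes of Clec4a2 and Clec5a. Mpeg1 was the brightest of the 12 in every library and weighed most in these sums. Mertk was not well above background in any library. At an unadjusted p under 0.05, Adgre1, Fcgr1 and Ccr2 were higher, at 1.002 ± 0.20, 1.14 ± 0.21 and 0.71 ± 0.48, and 0 markers passed the adjusted test. With array 2 turned these 3 genes were at 0.18, 0.54 and 0.03. At the same threshold 0 were lower, and Marco, at -0.41 ± 0.32, was below 0 on all 3 arrays as labelled (-0.05 with array 2 turned).

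Of 10 early granulocyte and monocyte progenitor markers 8 were on the array and tested, with a median of 0.42, 7 above 0 and 1 below. Their sums of 296500, 356700 and 326600 in Mef2c-deficient libraries did not overlap those of 271000, 203200 and 232100 in controls, as labelled. As for Clec5a and Clec4a2, control 2 was the lowest library. Mpo was the brightest of the 8 in every library and weighed most in these sums, so they do not stand for the list as a whole. Its own ratio averaged 0.06 ± 0.42. Csf2ra, the gene below 0, averaged -0.37 ± 0.45 and was below 0 on all 3 arrays as labelled (-0.35 with array 2 turned). Prtn3 at 1.03 ± 0.29, Elane at 0.91 ± 0.40 and Ms4a3 at 1.08 ± 0.65 had an unadjusted p under 0.05, and with array 2 turned they were at 0.19, 0.00 and -0.14. The part of this list in the members' ratios was not tested.

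Of 13 neutrophil markers 12 were tested, with a median of -1.05, 2 above 0 and 10 below. Their sums were 15510, 19620 and 17940 in Mef2c-deficient libraries, against 105000, 16100 and 21670 in controls. Control 1 held the high value, as it did for Clec4e, Clec4n and Clec9a. At an unadjusted p under 0.05, 0 neutrophil markers were higher and 3 were lower, and 0 passed the adjusted test. The 3 were Camp at -1.78 ± 0.98, S100a9 at -1.94 ± 1.77 and Retnlg at -1.32 ± 1.23. Retnlg was well above background in 1 Mef2c-deficient library and 2 controls. With array 2 turned the 3 genes were at -1.11, -1.86 and -0.22. Of 12 dendritic cell markers 11 were tested, with a median of -0.39, 3 above 0 and 8 below, and Siglech was not well above background in any library. Their sums were 54740, 39690 and 57550 in Mef2c-deficient libraries, against 65430, 65750 and 46060 in controls. Bst2 was the brightest of the 11 in every library and weighed most in these sums, so they do not measure dendritic cell content. Controls 1 and 2, the controls with the higher sums, were those in which Clec9a was well above background. At an unadjusted p under 0.05, 1 dendritic cell marker was higher and 2 were lower, and 0 passed the adjusted test. Itgax was at 0.70 ± 0.49, Flt3 at -1.15 ± 0.12 and Cd74 at -1.10 ± 0.93. With array 2 turned these were at 0.40, -0.32 and -0.64. The part of either list in the members' values was not tested.

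The genes of the 2 antigens sorted for were present. Kit and Ly6a (which encodes Sca-1) passed the filter. So did Cd34, Flt3, Slamf1 and Cd48, which are progenitor genes outside the gate given above. Of these 6 genes, 2 were higher and 1 was lower at an unadjusted p under 0.05, and 0 passed the adjusted test. Slamf1 averaged 1.16 ± 1.05, Ly6a 0.82 ± 0.27 and Flt3 -1.15 ± 0.12, and with array 2 turned they were at -0.36, 0.48 and -0.32. Among genes linked to the depleted lineage antigens, 7 of 9 were on the array and all 7 passed the filter. Their median log2 ratio was -0.13, with 2 above 0 and 5 below. Their summed signal was 45020, 42900 and 42060 in Mef2c-deficient libraries, against 23620, 26350 and 32350 in controls, which did not overlap as labelled and overlapped with array 2 turned. Ly6c1 was the brightest of the 7 in every library and weighed most in these sums, so they do not stand for the list as a whole. Ly6c1, which belongs to the Ly6 family as the Gr-1 antigen does, averaged 1.31 ± 0.21, while Itgam, the gene of Mac-1, averaged -1.05 ± 0.23 and Cd3g, a subunit of CD3, -0.77 ± 0.20. With array 2 turned these were at 0.52, -0.35 and -0.26. Of the 7, 1 was higher and 2 were lower at an unadjusted p under 0.05, and 0 passed the adjusted test. Markers of mast cells and basophils, B cells, T and NK cells, and erythroid and megakaryocytic cells had medians of -0.03, -0.14, -0.43 and -0.13.

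Around the members on chromosome 6, 48 other genes lay within 200000 bases, in 3 groups by their order in the RefSeq table. Of these, 25 were tested, with a median log2 ratio of -0.27, 8 above 0 and 17 below, and 0 passed the adjusted test. At an unadjusted p under 0.05, 2 were higher and 3 were lower. Mgam, which follows Clec5a and the taste receptor gene Tas2r138, averaged 1.005 ± 0.34, and Necap1, which precedes the Clec4 genes in that order, 0.68 ± 0.48. On the low side, in the group with Clec12a, Clec9a and Clec7a, were the noncoding gene 2310001H17Rik at -1.42 ± 1.05 and the NK receptor gene Klrd1 at -1.09 ± 0.82. With array 2 turned, Mgam was at 0.08, 2310001H17Rik at 0.04 and Klrd1 at 0.23, while Necap1 was at 0.57. The nearest tested neighbours of Clec12a, Clec2m and Clec1b, averaged 0.15 ± 0.82 and 0.27 ± 0.95.

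**Figure D3:**
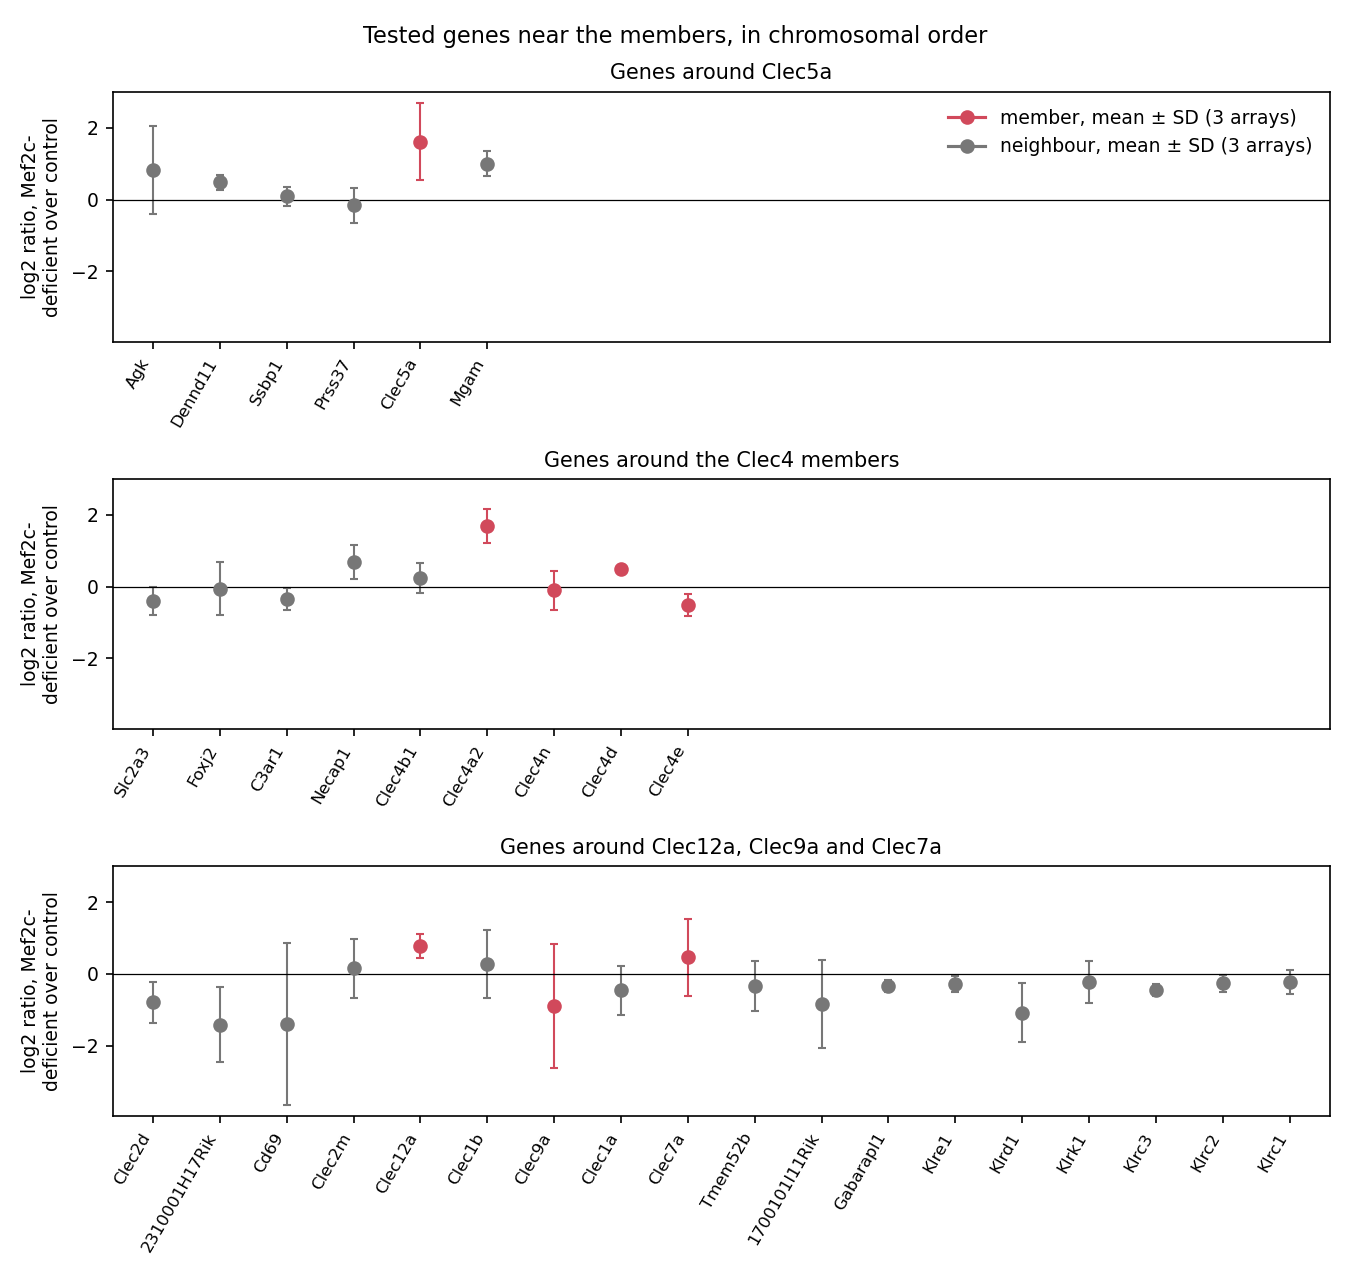
Mean log2 ratio of Mef2c-deficient over control ± SD over 3 arrays (vertical axis) of the tested genes in the 3 chromosome 6 groups, in their order along the chromosome without scale; members are red and other genes grey. Clec4a2 at 1.69 and Clec4e at -0.51 lie in the same group.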

How the data were processed

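Each of 3 arrays held 1 Mef2c-deficient and 1 control library. The authors' scanner files give spot intensity values, background-subtracted and dye-normalized processed signals, a log10 ratio of Cy5 over Cy3 and detection flags, and per the file headers Agilent Feature Extraction (version 9.5.1.1) made them. The authors' deposited table gives log2 ratios, for which the submitters' processing notes name limma. Their normalization is not described in those notes. Their rows were matched to spots in order.

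Mean foreground and median background intensities were corrected with limma 3.58.1 in R 4.3.3 (normexp, offset 50) and normalized by loess within arrays, with control spots at weight 0 and then left out. Outlier spots were left out, 300, 331 and 252 on arrays 1, 2 and 3. Levels of single channels were further normalized between arrays by Aquantile. Of 41174 probes, 32909 were measured, and flagged well above background in 1 given channel, on at least 2 arrays. Probes took RefSeq symbols by accession (22951), symbol (6659) or synonym (3109), and 8455 kept the file's name. The probe with the highest mean log2 intensity stood for each gene.

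Ratios were tested against 0 with lmFit and eBayes, two-sided, with Benjamini-Hochberg adjustment at 0.05. The pairing of the 2 samples of an array is in its ratio. All 3 arrays lay on 1 slide, so no slide block could be fitted. Values are mean ± SD. All members and probes are named. Of each pathway list and of the neighbours, up to 2 genes a direction are named, those with the largest mean ratio among genes of 1 sign on all 3 arrays and well above background in both channels throughout, and of marker lists the counts and sums. A gene that this rule names is not reported here. Other genes are named as a receptor's adaptor or kinase, a gate or progenitor gene, a gene next to a member or a listed marker, some for an unadjusted p under 0.05. These were chosen after their values were seen. Members and lists were chosen with earlier results of these data known. The script was tested on simulated data. Alternatives were other background corrections, normalizations, dim-probe filters, probe rules, the sign of array 2, the deposited ratios and leaving out each array. Promoters are RefSeq's (GRCm38.p6), matched for 9 of 10 members, all but Clec4n.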

Additional observations from a re-analysis of the deposited data

How the results depend on the processing

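No gene passed the adjusted limma test under any of the 13 alternatives. The count at an unadjusted p under 0.05 was 2251 (1069 higher, 1182 lower). It was 643 with the sign of array 2 turned (335 higher, 308 lower) and 650 with the authors' deposited ratios taken as deposited, an alternative chosen after seeing the data, and it ranged from 1297 (without replicate 1) to 2731 with 1 array left out. Median centring in place of loess gave 552 higher and 2319 lower. The members' median log2 ratio of 0.48 was -0.05 with array 2 turned, -0.051 with the ratios as deposited, and from 0.17 to 0.68 with 1 array left out. The cause was not tested. Of 102 member values under the alternatives, 92 lay within 1 SD of the value as reported and 10 did not. Each array's ratio pairs its 2 samples, so every test was paired by array. No further pairing could be fitted, since the ratios form 1 group. Dim signal limited Clec12a, Clec9a, Clec4a1 and Clec4a3, and 3 arrays limit the precision of every member.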
